A study of Mus musculus with 12 samples.

Results

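Heat shock proteins and DnaJ chaperones are the genes whose symbols begin with Hspa to Hspe or Hsph and a digit, with Hsp90, or with Dnaja, Dnajb or Dnajc and a digit. Of 26219 genes in the expression table, 72 carried such a name, and the 57 with a mean of at least 5 RPM over the 12 libraries are described here as members. RPM are the reads of a gene after every library is scaled to one size. The members are 12 genes of the Hsp70 and Hsp110 class, 3 Hsp90 genes, 2 chaperonin genes, 2 small Hsp genes, and 4 Dnaja, 9 Dnajb and 25 Dnajc genes. All 57 passed the filter for testing of at least 5 RPM in at least 2 libraries.

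Hsp70 proteins bind unfolded stretches of other proteins and release them in cycles driven by ATP. DnaJ proteins, also called Hsp40, hand clients to Hsp70 and stimulate its ATPase through their J domain, and Hsp110 proteins exchange the nucleotide. Hsp90 acts later, on kinases, hormone receptors and other clients, and the chaperonin Hspd1 with its lid Hspe1 folds proteins inside mitochondria. The transcription factor Hsf1 induces a subset of these genes when proteins unfold, as in heat. Testis is cooler than the body, and male germ cells carry their own Hsp70 forms, among them Hspa2, which is needed in meiosis.

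The libraries were made by SC3-seq, which amplifies cDNA and reads the 3′ ends of mRNA, from 1 ng of total RNA each. GSC_1 and GSC_2 are lines of germline stem cells (GSCs), cultured spermatogonial stem cells, each from its own testis at postnatal day 7. GSCLC_1 to GSCLC_4 are lines of germline stem cell-like cells (GSCLCs) from reconstituted testes. Every line has 2 culture replicates. For GSCLC_1 and GSCLC_4 the reconstituted testes had been kept at 34 °C for 3 weeks, which is condition 1. For GSCLC_2 and GSCLC_3, in condition 2, they had spent 2 weeks at 37 °C before 1 week at 34 °C. Cells of all 6 lines were of the C57BL/6 x 129/SvJcl background with the AcrAct_EGFP reporter and grew in one medium with GDNF, bFGF, LIF and EGF. The temperatures are those of the reconstituted testes before the lines were made. The temperature of the line cultures that gave the RNA was not given in the sources used here.

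The steps between low RPM values implied 3031465 to 4643820 counted reads per library, so that 3 reads corresponded to 0.646 to 0.99 RPM. The germ cell genes Dazl and Ddx4, an RNA-binding protein and an RNA helicase, stood at 1278 to 1536 RPM and 422.8 to 551.7 RPM over the line means. All 15 germ cell markers examined were detected, and their summed level was 4335 to 5099 RPM in GSC libraries and 4081 to 5234 RPM in GSCLC libraries. The summed level of 6 Leydig cell markers was 11.7 to 109 RPM in GSC libraries and 4 to 8.44 RPM in GSCLC libraries, with 2 of the 6 at 0 in every library. The defining enzyme genes Cyp11a1 and Hsd3b1 stood at 36.2 and 34.2 RPM in the first replicate of GSC_1 and 60.1 and 36.7 RPM in that of GSC_2. In the second replicates they were at 3.23 and 2.80 RPM and at 2.30 and 3.83 RPM. In GSCLC libraries Cyp11a1 was at most 0.751 RPM and Hsd3b1 at 0, and both were called lower in GSCLC lines. The summed level of 14 fibroblast markers was 547.6 to 1161 RPM in GSC libraries and at 468.8 to 769.5 RPM in GSCLC libraries. The GSC lines differed in it, with means of 584.9 RPM in GSC_1 and 1115 RPM in GSC_2, against 518.8 to 696.4 RPM in GSCLC lines. Of 13 tested fibroblast markers, 12 were higher in GSC_2 than in GSC_1, with a median log2 change of 1.07 and 0 called. Of the markers of other cell types, the fibroblast genes Col5a1 and Sparc, the Sertoli cell gene Clu and the macrophage gene Fcer1g also fell in GSCLC lines, by 1.13, 1.09, 1.79 and 3.35 on the log2 scale, with SE of 0.18, 0.26, 0.32 and 0.46. The fibroblast gene Twist1 rose by 0.85 ± 0.15. The limma adjusted p of these 5 genes ran from 0.00436 to 0.0463. Clu does not speak for its list: of the 4 tested Sertoli cell markers, 3 were above 0 and 1, Clu, was below. Their median log2 change was 0.96, and none of the 3 was called. The part of such cells in the results on GSC lines was not tested. In these bulk samples, fewer cells of a type and less RNA per cell cannot be told apart.

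Promoter sequences are shown first for 3 reasons: the heat shock element is the pattern that Hsf1 is known to bind, the ER stress element belongs to genes of the endoplasmic reticulum (ER), and Hspa2 is the member that differed most among lines. They come from the RefSeq promoter table of build GRCm38.p6, which matched 46 of the 57 members and holds 250 bases before and 50 after each start. The other 11 members, among them Hsp90aa1, Hspa8, Hsp90ab1 and Hspa9, had no promoter there and were not searched. The heat shock element of 3 units was searched on both strands as GAANNTTC followed by any 2 bases and GAA, and was found in 4 of 46 members, 8.7%, against 0.662% of all genes in the table. These were Hspd1, Hspe1, Dnajb6 and Hsph1. Its first 2 units, GAANNTTC, were found in 11 of 46 members, 23.9%, against 9.04% of all genes; every match of the longer motif contains this shorter one. Hspd1 and Hspe1 lie head to head on chromosome 1, with overlapping ends, and share 1 element, on opposite strands, at chr1:55088059-55088076. The element lies upstream of Hspe1, which begins at 55088148, but inside Hspd1, which runs from 55077833 to 55088243. For Hspd1 it was matched through a start within the gene, and the promoter at its outer end held no match. In the lines below, which run 5′ to 3′ on the strand of the gene, capitals mark the GAA and TTC units.
Hspe1, chr1:55088035-55088100, plus strand: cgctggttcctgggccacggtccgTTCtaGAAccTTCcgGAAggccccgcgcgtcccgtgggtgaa
Dnajb6, chr5:29735828-29735888, plus strand: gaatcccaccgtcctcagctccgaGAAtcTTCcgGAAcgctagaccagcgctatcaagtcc
Hspa1a, chr17:34972229-34972284, minus strand: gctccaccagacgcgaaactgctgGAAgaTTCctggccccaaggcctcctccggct

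The stretch shown for Hspa1a, an inducible Hsp70, is letter for letter the same in its neighbour Hspa1b, at chr17:34959311-34959366, and 296 of the 300 promoter bases of the pair are identical. The ER stress element was searched on both strands as CCAAT, any 9 bases and CCACG, and 3 of 46 members held it, 6.52% against 0.137% of all genes. They were Hspa5 and Hsp90b1, the Hsp70 and the Hsp90 of the ER, and Dnajc3, a DnaJ protein of the ER lumen. The CCAAT box alone, which is part of that element, was found in 20 of 46 members, 43.5% against 41.1% of all genes. Capitals mark the element in Hspa5 and Dnajc3, and in Hspa2 the CCAAT box, which there reads ATTGG because it lies on the other strand. The Hspa2 stretch comes before a start that the promoter table lists within the gene. It therefore lies inside Hspa2, which runs from 76403812 to 76406938, and not upstream of the whole gene. A match is a description of letters and not a measured site.
Hspa5, chr2:34772001-34772067, plus strand: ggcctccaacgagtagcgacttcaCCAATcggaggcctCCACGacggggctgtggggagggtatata
Dnajc3, chr14:118937803-118937869, plus strand: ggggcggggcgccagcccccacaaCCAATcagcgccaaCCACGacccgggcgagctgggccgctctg
Hspa2, chr12:76404317-76404369, plus strand: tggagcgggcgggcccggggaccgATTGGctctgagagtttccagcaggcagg

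The members together took 16032 to 20503 RPM, or 1.60% to 2.05% of a library. The summed level was 16700 ± 449.5 RPM in GSC lines (SD, n = 2 lines) and 18600 ± 1362 RPM in GSCLC lines (SD, n = 4 lines). It was 19470 ± 1120 RPM in lines of condition 1 and 17720 ± 1126 RPM in lines of condition 2 (SD, n = 2 lines each). GSCLC_4 had the highest sum at 20260 RPM and GSC_2 the lowest at 16380 RPM, and GSCLC_3, at 16930 RPM, lay between the GSC lines. Reads are of 3′ ends, so RPM are not divided by gene length.

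The cytosolic Hsp90 and constitutive Hsp70 genes led the family. Hsp90aa1, the inducible cytosolic Hsp90, averaged 3656 RPM over the 12 libraries, with 3133 to 3495 RPM in GSC libraries and a lowest, median and highest value of 3365, 3897 and 4236 RPM in GSCLC libraries. Hspa8, the constitutive Hsp70, averaged 3150 RPM, Hsp90ab1, the constitutive cytosolic Hsp90, 2395 RPM and Hspe1 1888 RPM. These 4 genes held 60.1% to 63.5% of the members' sum in each library. Hspd1 averaged 731 RPM. Among the DnaJ genes, Dnaja1 was highest at 764.5 RPM, followed by Dnaja2 at 491.4 RPM, both cytosolic partners of Hspa8.

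In the other compartments, the ER members Hsp90b1 and Hspa5 averaged 510.1 and 491.6 RPM, and the mitochondrial Hsp70 Hspa9 407.7 RPM. Hspa4, an Hsp110 type exchange factor, averaged 432.7 RPM and Hspa14, an Hsp70 of the ribosome-associated complex, 233.3 RPM. The leading Dnajb genes were Dnajb6 at 266.7 RPM, Dnajb1, the main heat-inducible Hsp40, at 213 RPM, the ER protein Dnajb11 at 135.5 RPM, Dnajb9 at 73.4 RPM and Dnajb4 at 27.3 RPM. The leading Dnajc genes were Dnajc2, the partner of Hspa14 at the ribosome, at 222.3 RPM, Dnajc8 at 208 RPM, Dnajc10 at 170.6 RPM, Dnajc19 at 150.3 RPM and the endosomal Dnajc13 at 116.2 RPM. Dnaja3 and Dnaja4 averaged 108.3 and 25.9 RPM. The small Hsp members were low, with Hspb11, which is a subunit of the ciliary transport complex, at 38.9 RPM and the actin-binding chaperone Hspb1 at 15.7 RPM.

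**Figure D1:**
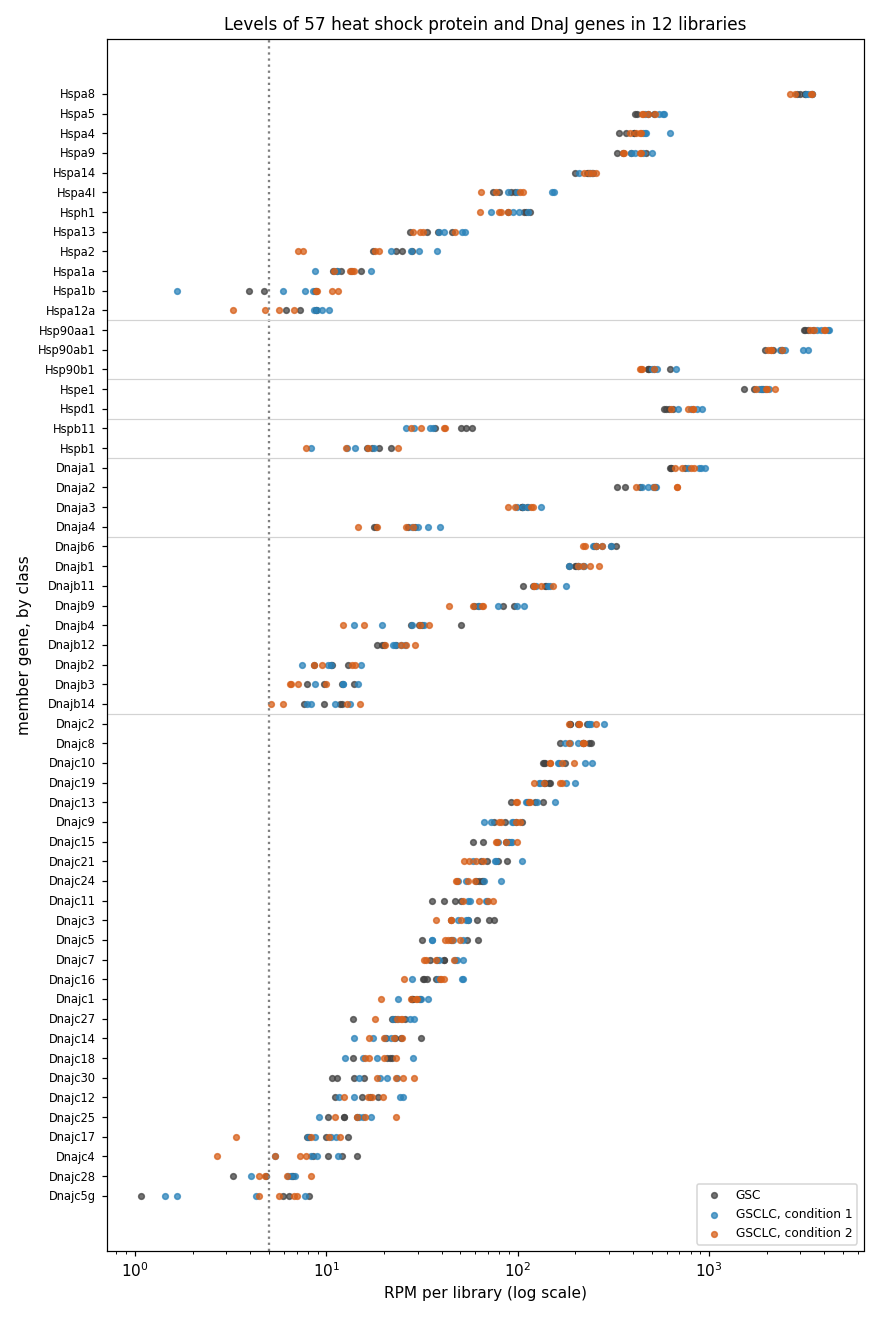
RPM of the 57 members (rows, grouped by class, most abundant first in each) in each of the 12 libraries (points, coloured by group) on a log axis, with the mean RPM of 5 used to choose members as a dotted line. Hsp90aa1, Hspa8, Hsp90ab1 and Hspe1 stand apart at 1517 RPM or more in every library, and the low genes at the foot of a class, such as Dnajc5g, spread most.

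The Hsp70 genes most strongly induced by heat in other cells, Hspa1a and Hspa1b, were low. Hspa1a was at 11.4, 10.8, 15.3 and 12 RPM in the GSC libraries, and at 8.77 to 17.2 RPM in the GSCLC libraries. Hspa1b was at 8.80, 4.74, 3.94 and 8.67 RPM in GSC libraries and at 1.65 to 11.5 RPM in GSCLC libraries. Groups overlapped for both genes. Hsph1, the inducible Hsp110, was at 88.5 to 116 RPM in GSC libraries and at 63.2 to 112.7 RPM in GSCLC libraries. A level says nothing of induction by itself, since no library of heated cells was analysed here.

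The rule left out 15 genes below the mean of 5 RPM, of which 6 were small Hsp genes. Dnajc5g, at 5.04 RPM, and Dnajc28, at 5.74 RPM, were just inside, and Hspb6, at 4.26 RPM, and Hspb2, at 3.02 RPM, just outside. Dnajc5b, a cysteine string protein gene known from testis, was at 0 in all 12 libraries. In a single library, 0 reads allow up to 0.646 to 0.99 RPM by counting error, and over the 12 together the limit is lower.

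For 16 of the 57 members, at least 50 of the last 300 transcript bases matched another annotated gene with at least 95% identity, mostly a processed pseudogene. They include Hsp90aa1, Hspa8, Hspd1, Hspe1, Hspb1, Dnaja1, Dnaja4, Dnajb6, Dnajb9 and Dnajc19, so that their levels are uncertain where reads could be split between copies. For 5 of the 16, including Dnaja1 with Smu1 and Dnaja4 with Wdr61, the end also overlaps another gene, and the sources used here do not say whether reads were counted by strand. Hspa2, Hspa4l, Dnajb4, Hsp90ab1, Dnaja2, Dnajc10 and Dnajc11 had no such match, nor did the pair Hspa1a and Hspa1b in this window.

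The first comparison asked whether chaperone levels in GSCLC lines differ from those in GSC lines. None of the 57 members passed an adjusted p of 0.05 in limma on line means of log2(RPM + 1), where 3.02% of the 11788 genes tested did. At an unadjusted p under 0.05 there were 7 members, or 12.3%, against 16.9% of all genes. The members' median log2 change was 0.07, against -0.01 over all genes, with 34 members above 0 and 23 below. Of all genes, 49.2% were above 0. Line means did not overlap for 15 members, 11 higher and 4 lower in GSCLC lines on the log2(RPM + 1) scale, or 26.3% against 28.6% of all genes, a share near the background.

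Of the 7 members with an unadjusted p under 0.05, 5 had higher levels in GSCLC lines: Dnajc11, Dnajc30, Hspd1, and the cytosolic Dnaja1 and Dnaja2, whose log2 changes were 0.31 ± 0.12 and 0.37 ± 0.15 with limma adjusted p of 0.226 and 0.237. Dnajc11, which helps to organise the inner membrane, was at 41.1, 35.7, 47.3 and 50.3 RPM in the GSC libraries and at 51.9 to 74.1 RPM in the GSCLC libraries. Every GSCLC library was above every GSC library. The log2 change was 0.53 ± 0.16 (SE), with a limma adjusted p of 0.109. With single libraries and the line as a random effect, Dnajc11 was called, at an adjusted p of 0.0469; the adjusted p ranged up to 0.602 when a GSC line was left out.

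Dnajc30, a mitochondrial DnaJ protein that binds ATP synthase, went from 13.0 ± 0.377 RPM in GSC lines to 21.7 ± 3.53 RPM in GSCLC lines (SD, n = 2 and 4), a log2 change of 0.69 ± 0.21 with a limma adjusted p of 0.118. Hspd1 was at 620.3, 645.3, 597.4 and 582 RPM in the GSC libraries and at 634.7 to 919 RPM in the GSCLC libraries, where 1 library of GSCLC_3 overlapped the GSC range. Its log2 change was 0.36 ± 0.12, limma adjusted p = 0.139. Its promoter neighbour Hspe1 had line means of 1747 ± 84.2 and 1959 ± 34.2 RPM (SD, n = 2 and 4), a log2 change of 0.17 ± 0.10 with a limma adjusted p of 0.414.

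Of the 10 tested members of a list of mitochondrial chaperones, 0 passed the test, 3 had an unadjusted p under 0.05 and 9 were above 0, with a median log2 change of 0.15. Among all genes, 3.02% passed, 16.9% had an unadjusted p under 0.05 and 49.2% were above 0. The mitochondrial list held Dnajc4, the member below 0. It was at 11.3 ± 1.48 RPM in GSC lines and at 7.17 ± 2.41 RPM in GSCLC lines (SD, n = 2 and 4). Toward lower levels, Hspb11 was at 49.7 ± 8.37 and 33.5 ± 4.11 RPM (log2 change -0.56 ± 0.18, limma adjusted p = 0.138). Dnajc3 was at 65.3 ± 0.724 and 47.5 ± 4.46 RPM (log2 change -0.45 ± 0.15, limma adjusted p = 0.15).

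The list of 14 genes inducible by heat had 0 members past the test, with 10 above 0, 4 below and a median log2 change of 0.11. Among all genes, 3.02% passed and 49.2% were above 0, with a median of -0.01. Within the list, log2 changes ran from -0.62 ± 0.32 for Dnajb4 to 0.36 ± 0.12 for Hspd1. Hspa1a had a log2 change of 0.04 ± 0.22 and Hspa1b of 0.20 ± 0.35. Among the 13 tested ER members, 0 passed, with a median of 0.15. Of 7 tested immediate early and stress genes that are not members, 1 passed, Egr1, a transcription factor induced by growth signals, whose log2 change was -0.93 ± 0.13 with a limma adjusted p of 0.00458.

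The comparison of culture conditions concerned the reconstituted testes. It asked whether lines from testes that had spent 2 weeks at 37 °C differ in chaperone levels from lines from testes kept at 34 °C throughout. None of the 57 members passed the test, at a background of 0% of 11788 genes, and the smallest limma adjusted p among members was 0.933. With 2 lines against 2, 7 members, or 12.3%, had an unadjusted p under 0.05, against 4.67% of all genes. The members' median log2 change was -0.14, against -0.07 over all genes, with 38 members below 0 and 19 above. Of all genes, 37.9% were above 0 in this comparison. Line means did not overlap for 24 members, 18 lower and 6 higher in condition 2 on the log2(RPM + 1) scale, or 42.1% against 30.9% of all genes.

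The 7 members with an unadjusted p under 0.05 do not share a class. Hspa2, the germ cell Hsp70, was at 37.7 and 30.5 RPM in GSCLC_1 and at 21.8 and 27.7 RPM in GSCLC_4, both of condition 1. In condition 2 it was at 18.1 and 18.8 RPM in GSCLC_2 and at 7.07 and 7.55 RPM in GSCLC_3. The 4 libraries of condition 1 were all above the 4 of condition 2. The log2 change was -1.24 ± 0.37, limma adjusted p = 0.933, and it was -0.62 without GSCLC_3 and -1.85 without GSCLC_2. GSC lines, at 23.4 ± 4.27 RPM (SD, n = 2), lay between the conditions.

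Hsp90ab1 was at 2803 ± 547 RPM in condition 1 and at 2159 ± 76.0 RPM in condition 2 (SD, n = 2 each), a log2 change of -0.37 ± 0.14 that was -0.17 without GSCLC_4. Dnajb9, an ER DnaJ protein induced by ER stress, had a log2 change of -0.57 ± 0.21 that was -0.29 without GSCLC_4. Hspa1b was the 1 gene of the 7 that was higher, at 5.95 ± 1.22 RPM in condition 1 and at 10.0 ± 0.271 RPM in condition 2 (SD, n = 2 each). Its 8 GSCLC libraries read 7.70 and 5.91 RPM in GSCLC_1, 8.51 and 1.65 RPM in GSCLC_4, 11.5 and 8.87 RPM in GSCLC_2 and 10.7 and 8.89 RPM in GSCLC_3. Its log2 change was 0.81 ± 0.34, and it was 0.41 in the first replicates alone and 1.21 in the second. Its near-identical neighbour Hspa1a had a log2 change of 0.06 ± 0.27, at 12.7 ± 0.365 and 13.0 ± 0.641 RPM (SD, n = 2 each).

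Hspa12a, a distant Hsp70 relative, Dnaja4 and Dnajc21 make up the 7, with log2 changes of -0.79 ± 0.31, -0.61 ± 0.27 and -0.41 ± 0.18. Dnaja2 and Dnajc5g were next to Hspa1b among members with positive values, and their values did not pass either. Of the 14 inducible genes, 0 passed the test between conditions, with 6 above 0, 8 below and a median log2 change of -0.08. Beside this, 37.9% of all genes were above 0, with a median of -0.07.

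**Figure D2:**
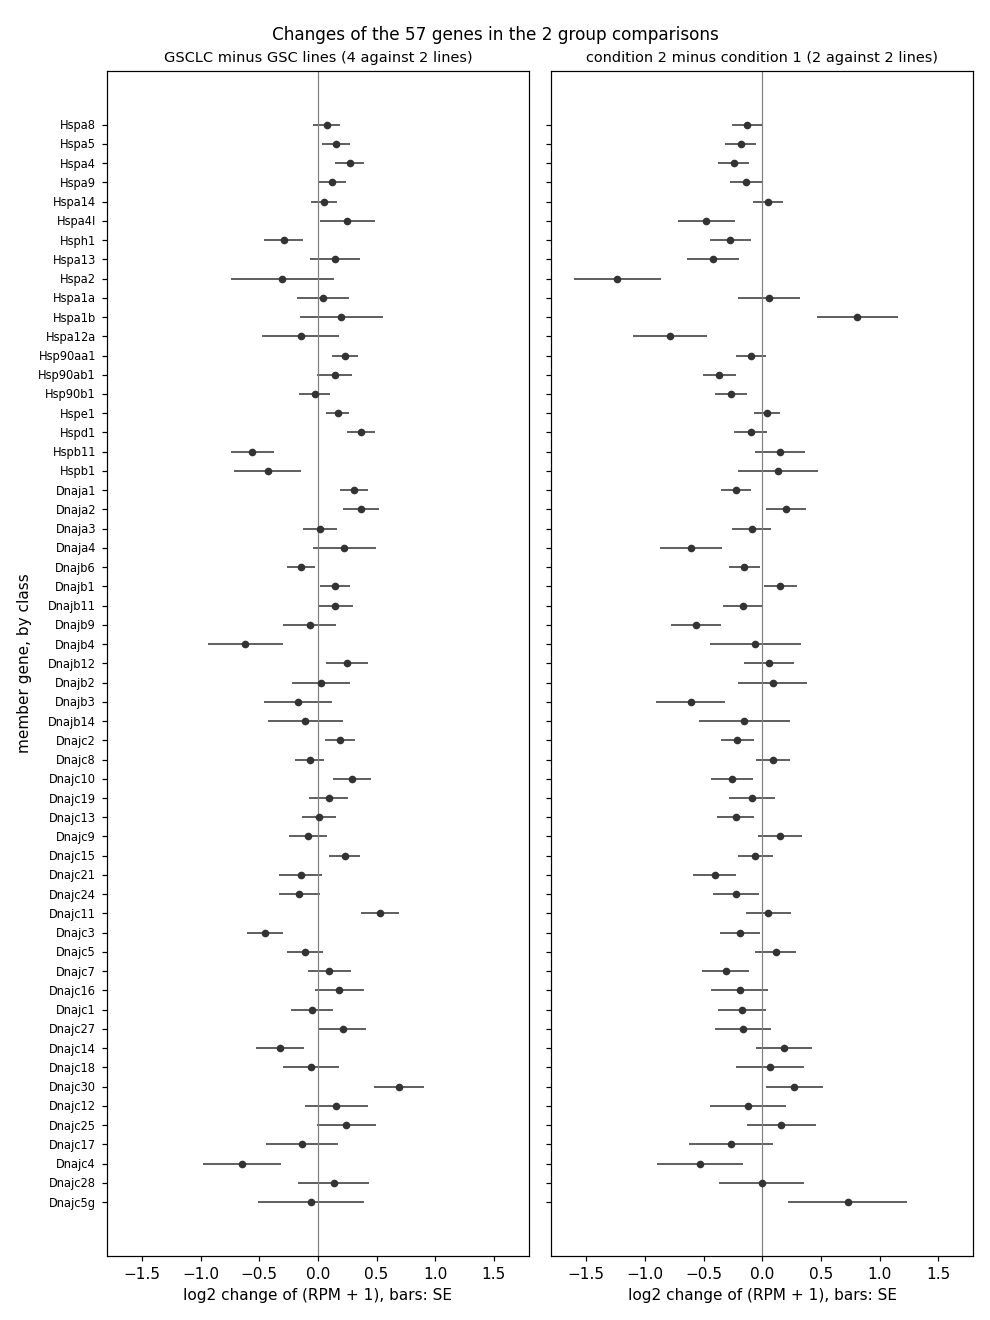
Log2 change of (RPM + 1) with its SE (bars) for each of the 57 members between GSCLC and GSC lines (left) and between conditions 2 and 1 (right). No member passed an adjusted p of 0.05 in either comparison, and Hspa2 at -1.24 lies farthest from 0 on the right.

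Members were called in tests between single lines. These tests use the spread of culture replicates and the group tests that of line means, so their counts of calls cannot be compared. The test over the 6 lines also takes in any difference between GSC and GSCLC lines. In a limma F-test over the 6 lines, which asks whether lines differ by more than their culture replicates, 13 of 57 members passed, or 22.8%, against 20% of all genes, a share near the background. They were Hspa2, Hspa4l, Dnajb4, Hspd1, Hsp90ab1, Dnajc11, Dnaja1, Dnaja2, Dnajc10, Dnajc19, Dnajb9, Hspb11 and Dnaja4. Among the 4 GSCLC lines alone 7 passed, or 12.3% against 9.14% of all genes: Hspa2, Hspa4l, Dnajb4, Hsp90ab1, Dnajc19, Dnajb9 and Dnaja4. These tests rest on culture replicates and do not speak for other lines. Between the highest and the lowest line, 10 members, or 17.5%, differed by more than 2-fold on the log2(RPM + 1) scale, against 25.6% of all genes.

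Hspa2 had the smallest p of the 57, with limma adjusted p = 0.00016 over the 6 lines. The gene (identifier 15512) lies on chromosome 12 at 76403812 to 76406938 of GRCm38. GSC_1 was at 24.8 and 28 RPM and GSC_2 at 17.5 and 23.2 RPM, so that GSCLC_1 was the highest line and GSCLC_3, at 7.31 RPM on average, the lowest. Against the mean of the other 3 GSCLC lines, GSCLC_1 was higher by a log2 change of 1.12 ± 0.21, limma adjusted p = 0.0179, the 1 member called for that line, where 0.458% of all genes were called. That call was lost when either replicate of GSCLC_1 was left out, with an adjusted p of up to 0.479 over all alternatives. GSCLC_3 was lower by a log2 change of -1.64 ± 0.21, limma adjusted p = 6.6e-05, and this call held in all 19 alternatives run.

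Hspa4l, an Hsp110 type protein abundant in testis, differed between lines with limma adjusted p = 0.00185. GSCLC_4 was at 150.3 and 155.4 RPM, above all other libraries. GSCLC_3, at 64.5 and 77.4 RPM, had the lowest line mean, and the GSC libraries were at 96.5, 74.5, 92.1 and 79.6 RPM. The log2 changes against the other 3 GSCLC lines were 0.78 ± 0.14 in GSCLC_4 and -0.69 ± 0.14 in GSCLC_3, with limma adjusted p of 0.00447 and 0.00421. The call in GSCLC_3 was lost, at an adjusted p of 0.0809, without the first replicate of that line, and the call in GSCLC_4 held in all 19 alternatives.

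Dnajb4, a heat-inducible cytosolic Hsp40, was at 50.5 and 31.4 RPM in GSC_1, 27.8 and 30.6 RPM in GSC_2, 32.2 and 28.1 RPM in GSCLC_1 and 34.5 and 31.0 RPM in GSCLC_3. It was lower in GSCLC_2, at 15.8 and 12.3 RPM, and in GSCLC_4, at 14 and 19.5 RPM. The 4 libraries of GSCLC_2 and GSCLC_4, which are of different conditions, were below the 8 others. The limma adjusted p over the 6 lines was 0.00208. For GSCLC_2 alone, the log2 change of -0.82 ± 0.21 had a limma adjusted p of 0.0536, and no member was called for that line, against 1.7% of all genes. It was the member with the smallest p of 6 members with an unadjusted p under 0.05 in GSCLC_2, or 10.5% against 14.6% of all genes. It was called after quantile normalization, at an adjusted p of 0.0445, and without either replicate of GSC_1 or the first of GSCLC_4, at 0.0307 to 0.039.

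**Figure D3:**
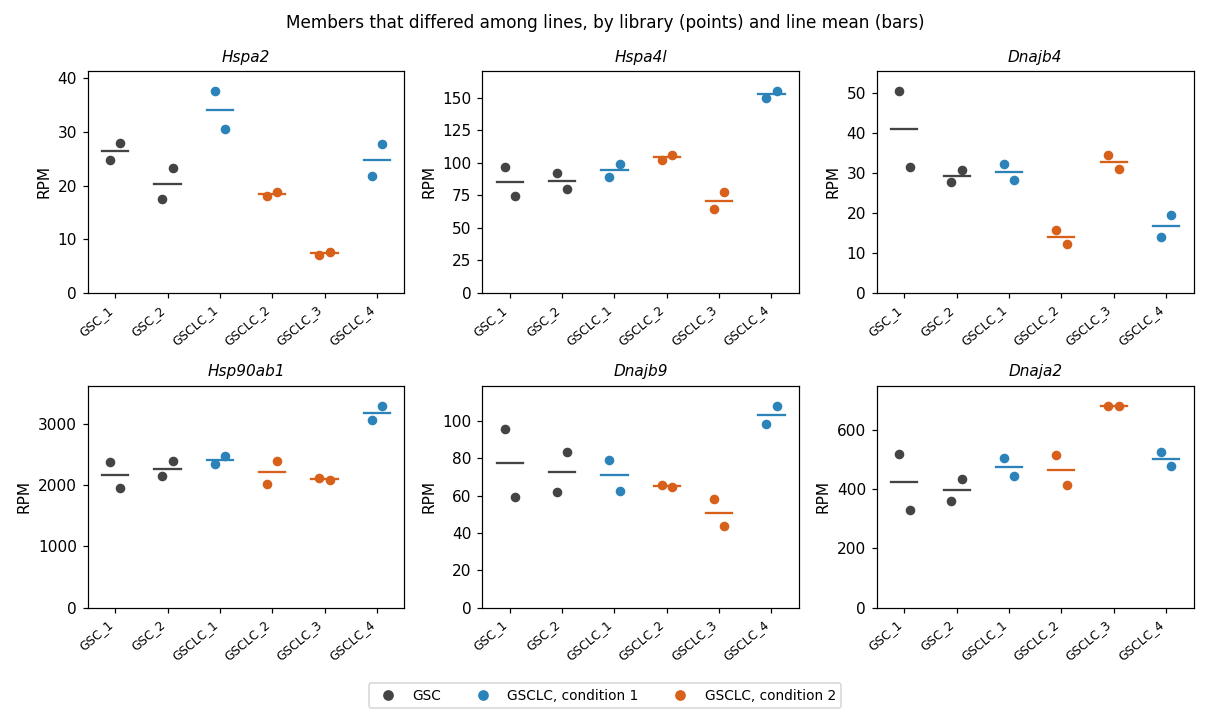
RPM (vertical axes from 0) of Hspa2, Hspa4l, Dnajb4, Hsp90ab1, Dnajb9 and Dnaja2 in the 2 libraries of each of the 6 lines (points) with the line mean (short bars), coloured by group. GSCLC_3 is lowest for Hspa2 at 7.31 RPM and highest for Dnaja2 at 682.2 RPM, and GSCLC_4 is highest for Hspa4l, Hsp90ab1 and Dnajb9.

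GSCLC_4 was the line with the highest level for 20 members, or 35.1%, against 27.9% of all genes. In GSCLC_4 against the other 3 GSCLC lines, 4 members rose and 0 fell, or 7.02% called against 6.53% of all genes (4.45% higher and 2.08% lower). Besides Hspa4l they were Hsp90ab1, Dnajb9 and Dnajc10, an ER reductase with a J domain. Hsp90ab1 was at 3076 and 3304 RPM in GSCLC_4 and at 1959 to 2482 RPM in the 10 other libraries, with no overlap, and its log2 change was 0.51 ± 0.11, limma adjusted p = 0.0105. Dnajb9 was at 98.7 and 108.2 RPM in GSCLC_4 and at 43.7 to 95.5 RPM elsewhere (log2 change 0.74 ± 0.18, limma adjusted p = 0.0214). Dnajc10 was at 245.7 and 225.3 RPM in GSCLC_4 and at 135.9 to 196.1 RPM elsewhere (log2 change 0.52 ± 0.13, limma adjusted p = 0.0255). The median of all genes was itself shifted by 0.107 in this contrast, and that of the members was 0.156. After quantile normalization, which removes such a shift, the log2 changes were 0.70, 0.68, 0.66 and 0.49 for Hspa4l, Hsp90ab1, Dnajb9 and Dnajc10, and all 4 remained called.

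Leaving out either replicate of GSCLC_4 ended the calls of Hsp90ab1, Dnajb9 and Dnajc10, and the adjusted p reached 0.0868, 0.122 and 0.227 over the alternatives. The call of Dnajb9 was also lost without the second replicate of GSCLC_1, and that of Dnajc10 without either replicate of GSCLC_1 or the second of GSCLC_2. Of 13 tested ER members, 2 rose in GSCLC_4, Dnajb9 and Dnajc10, and 12 were above 0, with a median log2 change of 0.29, where 62.4% of all genes were above 0 and 4.45% were called higher. Of 13 tested fibroblast markers, 2 rose in GSCLC_4, Col1a1 by 0.86 ± 0.20 and Pdgfra by 1.02 ± 0.27, and 11 were above 0, with a median of 0.54. The 14 markers summed to 623.2 and 769.5 RPM in GSCLC_4 and to 468.8 to 727 RPM in the other GSCLC libraries. The 10 Sertoli cell markers summed to 122.5 and 110.2 RPM there and to 25.6 to 50.7 RPM in the other GSCLC libraries. Of 4 tested, 1 rose, Rhox5, by 4.38 ± 0.34, and 3 were not called. Among these, Wt1 and Clu had log2 changes of 0.56 and 0.65 with limma adjusted p of 0.28 and 0.413, and 1 of the 4 was below 0. The part of such cells in the calls for GSCLC_4 was not tested. Dnaja4, at 39.3 and 34.0 RPM in GSCLC_4 and 14.6 to 30.2 RPM elsewhere, and Hsp90b1 had log2 changes of 0.61 ± 0.22 and 0.33 ± 0.12 with limma adjusted p of 0.0924 and 0.0916. Hspa1b lay on the other side, at -0.96 ± 0.40 with a limma adjusted p of 0.155.

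GSCLC_3 was the line with the lowest level for 21 members, or 36.8%, against 27.1% of all genes. Against the other 3 GSCLC lines, 4 members fell and 2 rose, or 10.5% called against 7.61% of all genes (5.12% lower and 2.49% higher). The members' median log2 change was -0.22, against -0.09 over all genes. Hspa2 and Hspa4l fell as given above. Of 4 tested Sertoli cell markers, 2 fell in GSCLC_3, Rhox5 and Wt1, and 0 of 13 fibroblast markers were called; their part in the result was not tested. Dnaja4 was at 18.4 and 14.6 RPM, against 26.1 to 39.3 RPM in the other GSCLC libraries, and fell by 0.87 on the log2 scale with an SE of 0.22, limma adjusted p = 0.0176, a call lost without the second replicate of GSCLC_3. Dnajb9 was at 58.2 and 43.7 RPM (log2 change -0.62 ± 0.18, limma adjusted p = 0.04), and this call was lost without either replicate of GSCLC_2 or GSCLC_3 or the first of GSCLC_1, with an adjusted p of up to 0.375.

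The members that rose in GSCLC_3 were Dnaja2 and Dnajb4. Dnaja2 was at 683 and 681.4 RPM in GSCLC_3 and at 329.7 to 525 RPM in the 10 other libraries, with no overlap (log2 change 0.51 ± 0.14, limma adjusted p = 0.0318). Dnajb4 rose by 0.74 ± 0.21 against a mean that includes the low lines GSCLC_2 and GSCLC_4 (limma adjusted p = 0.0367). Leaving out either replicate of GSCLC_3 ended both calls, with an adjusted p of up to 0.169 for Dnaja2 and 0.201 for Dnajb4 over the alternatives. The call of Dnaja2 was also lost without the second replicate of GSCLC_1 or GSCLC_2. That of Dnajb4 was also lost without either replicate of GSC_2 or GSCLC_1, the second of GSCLC_2 or the first of GSCLC_4.

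Position moved with the result for Dnaja2. In GSCLC_3, 88.3% of the 631 tested genes of chromosome 8 were above 0, with a median log2 change of 0.40 where the median of all genes was -0.09. The members on chromosome 8 are Dnaja2, at 85537633 to 85555361 of GRCm38, and Dnajb1, at 83608175 to 83612653. Dnajb1 was at 237.8 and 266 RPM in GSCLC_3 and at 184.9 to 221.2 RPM elsewhere, with no overlap. The median of both was 0.39, close to that of the chromosome. In GSCLC_4 the same chromosome had a median of -0.06. Chromosome 6, whose median was -0.34 in GSCLC_3 and 0.31 in GSCLC_4, holds 0 members. The part of the chromosome-wide shift in the level of Dnaja2 was not tested.

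**Figure D4:**
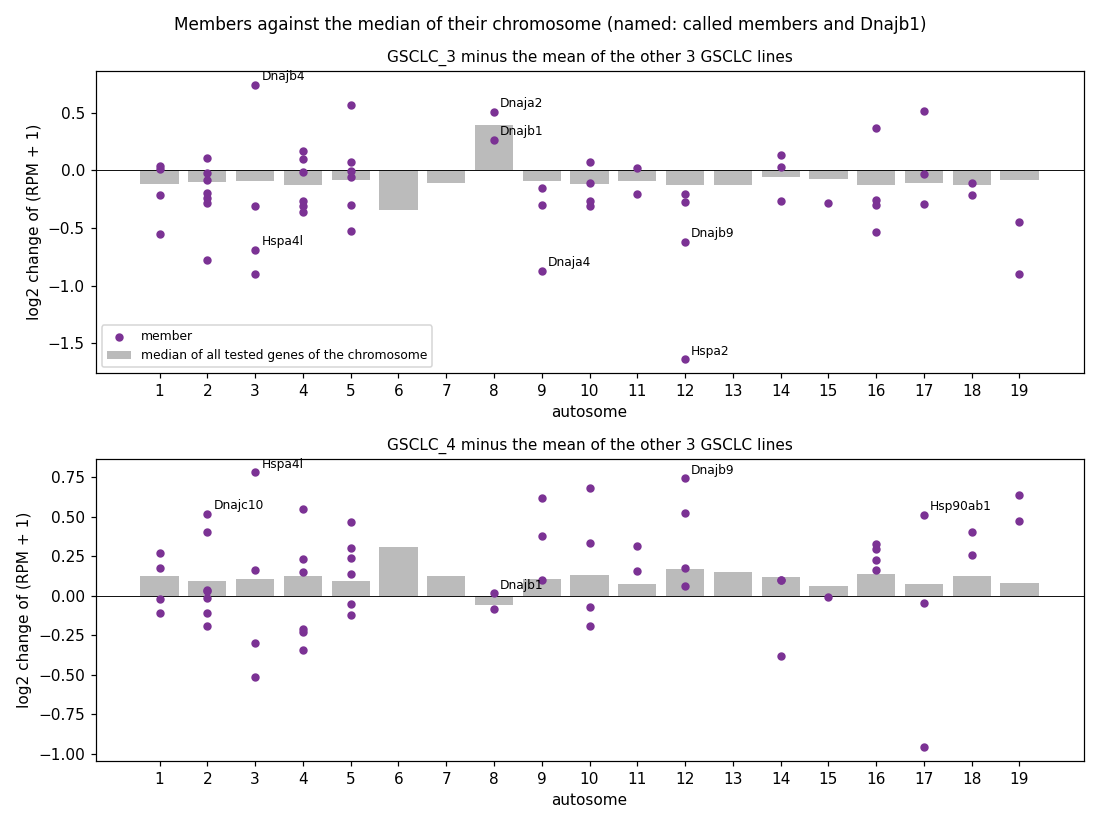
Log2 change of (RPM + 1) of the members (points) on each autosome and the median of all tested genes of that autosome (grey bars), for GSCLC_3 (top) and GSCLC_4 (bottom) against the mean of the other 3 GSCLC lines; members called in the contrast and Dnajb1 are named. In GSCLC_3 the bar of chromosome 8 stands at 0.40 with Dnaja2 and Dnajb1 near it, while Hspa2 on chromosome 12 lies at -1.64, far below its bar.

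The test over 6 lines called 6 further members. Hspd1 was highest in GSCLC_1 at 919 and 867.3 RPM, followed by GSCLC_2 at 824.1 and 819.4 RPM, and lowest in the GSC lines (limma adjusted p = 0.0137). Dnaja1 was at 622.3 to 745.8 RPM in GSC libraries and at 666.3 to 948.9 RPM in GSCLC libraries, which overlapped (limma adjusted p = 0.0227). Dnajc11 had a limma adjusted p of 0.0226 over the 6 lines. Dnajc19, a mitochondrial inner membrane protein, was at 178 and 200.2 RPM in GSCLC_1 and 166.5 and 170.9 RPM in GSCLC_2, above the 8 other libraries at 121.3 to 147.5 RPM (limma adjusted p = 0.0327). Hspb11 passed with a limma adjusted p of 0.0462 and Dnaja4 with 0.0496, and these 2 calls held in 7 and 5 of 19 alternatives. The calls of Hspa2, Hspa4l and Dnajb4 over the 6 lines held in all 19 alternatives, and each of the 10 others was lost without some library, in 2 to 8 of the 12 fits that left 1 out. The count of 13 became 8 without either replicate of GSC_2 and 7 without the first replicate of GSCLC_1 or of GSCLC_4, and the count of 7 over the GSCLC lines became 4 without the second replicate of GSCLC_3 or of GSCLC_4. Between GSC_2 and GSC_1, limma called 0 members, where 0.0509% of all genes were called, and 0 had an unadjusted p under 0.05, where 6.74% of all genes did.

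**Figure D5:**
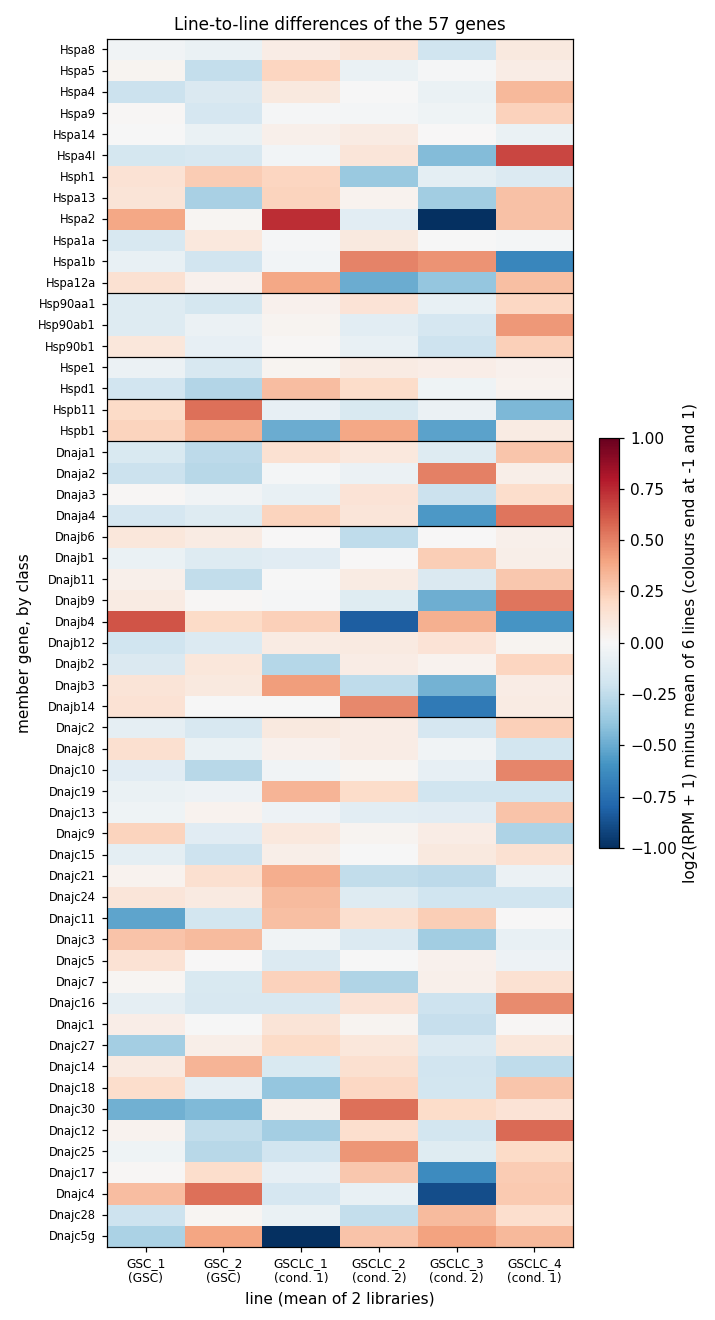
Heat map of the 57 members (rows, by class) in the 6 lines (columns, mean of 2 libraries), as log2(RPM + 1) minus the mean of the 6 lines, with red above and blue below and colours ending at -1 and 1. GSCLC_3 has the lowest level for 21 members and GSCLC_4 the highest for 20.

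Genes of the wider chaperone network, from lists written from textbook knowledge, gave 0 calls in both group comparisons: 0 of 4 tested regulators, 0 of 20 Hsp90 co-chaperones, 0 of 14 Hsp70 co-chaperones, 0 of 13 genes of the cytosolic chaperonin and prefoldin, 0 of 21 ER stress genes and 0 of 8 genes of mitochondrial protein quality control. At an unadjusted p under 0.05 there were 0, 1, 0, 1, 4 and 1 of them between GSCLC and GSC lines, and 0, 3, 0, 0, 2 and 0 between conditions, against 16.9% and 4.67% of all genes. The factor gene Hsf1 was at 59.7 ± 4.89 RPM in GSC lines and at 54.3 ± 9.7 RPM in GSCLC lines, and Hsf2 at 25.3 ± 4.56 and 28.1 ± 3.00 RPM (SD, n = 2 and 4).

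Between the 6 lines, 6 of 20 Hsp90 co-chaperones, 1 of 14 Hsp70 co-chaperones, 2 of 13 chaperonin and prefoldin genes, 7 of 21 ER stress genes, 2 of 8 mitochondrial genes and 0 of 4 regulators passed, where 20% of all genes did. The next genes were chosen after their values were seen. Stip1, which links Hsp70 to Hsp90, rose in GSCLC_4, at 562.6 RPM against 398.1 to 502.4 RPM in the other line means (log2 change 0.34 ± 0.10, limma adjusted p = 0.0473). It was the 1 of 20 Hsp90 co-chaperones that rose there, and 2 fell, Aarsd1 by 1.05 and Fkbp8 by 0.65 on the log2 scale (limma adjusted p of 0.018 and 0.0134). Ppid, an Hsp90-binding cyclophilin, fell in GSCLC_3, at 230.9 RPM against 281.2 to 358.6 RPM (log2 change -0.49 ± 0.11, limma adjusted p = 0.00955). Edem1, an ER degradation factor, fell in GSCLC_3 by 0.96 on the log2 scale and rose in GSCLC_4 by 0.81, and Cct7, a subunit of the cytosolic chaperonin, by 0.57 and 0.48 in the same directions. Both lie on chromosome 6, whose medians in these lines are given above. Of the 21 ER stress genes, Herpud1 also rose in GSCLC_4, by 0.96 ± 0.24, and Calr, a chaperone of the ER lumen, fell there by 0.70 on the log2 scale with an SE of 0.15 (limma adjusted p of 0.0218 and 0.0128). Fkbp8, Herpud1 and Calr lie on chromosome 8, with a median log2 change of 0.40 in GSCLC_3 and -0.06 in GSCLC_4. GSCLC_3 is among the lines against which GSCLC_4 was compared. The part of these chromosome-wide shifts in the levels of such genes was not tested.

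The germ cell list held 10 genes, of which 4 passed the filter: Hspa2, Hspa4l, Dnajb3 and Dnajc5g. None of the 4 passed between GSCLC and GSC lines or between conditions. Dnajb3, a testis DnaJ gene, was at 7.88 to 14 RPM in GSC libraries and 6.47 to 14.7 RPM in GSCLC libraries, which overlapped. Dnajc5g, a cysteine string protein gene of testis, was at 8.15, 1.08, 5.91 and 6.38 RPM in GSC libraries and at 1.43 and 1.65 RPM in GSCLC_1, and it lies close to the floor of 3 reads. The others were lower still: Hspa1l, the Hsp70 of spermatids, was at 0.752 to 5.42 RPM, Hspb9 at 0 to 2.01 RPM and Dnajb8 at 0 to 0.985 RPM. Dnajb7 and Dnajb13 were at most 0.255 and 0.51 RPM, below the 3-read floor of their library. Of the 15 germ cell markers that are not chaperones, 2 rose and 0 fell in GSCLC_3, against 2.49% and 5.12% of all genes. Of these markers 8 were above 0 and 7 below, with a median log2 change of 0.0023, where 38.0% of all genes were above 0.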

How the data were processed

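Transcripts were measured in 12 mouse libraries of 6 lines with 2 culture replicates each. The authors deposited 1 table of RPM for 26219 genes, and every column was matched to a sample by its title (0 columns were left without a sample). Cutadapt 1.3, TopHat 1.4.1, Cufflinks 2.2.0 and mm10 (GRCm38) are named in the submitters' processing notes; their settings and the use of strand were not given in the sources used here. RPM hold no depth, so reads per library were implied from the smallest step between values; 99.4% to 99.6% of values were whole within 0.1 of a step, and no count test was run. Floors cover counting error only: without molecular identifiers, several reads can come from 1 amplified molecule.

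Values were taken as log2(RPM + 1), which understates changes of low genes. The 11788 genes that reached 5 RPM in at least 2 libraries were tested with limma 3.58.1 in R 4.3.3, with a mean-variance trend, two-sided, and Benjamini-Hochberg adjustment over all genes at 0.05. GSCLC against GSC lines and condition 2 against condition 1 were fitted on line means, the latter with the GSC lines adding to the estimate of spread. Line tests used single libraries. The labels call the replicates of a line biological replicates of its culture, and p-values of line tests measure the spread between them. The kind of line cannot be told apart from its source. The procedure was tested on simulated data, with spreads between lines and replicates that were assumed and not estimated from these libraries. That test does not give the power of the comparisons here. Figures were drawn with matplotlib 3.10.9.

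The members and gene lists were chosen with earlier results of these data known. The rule for naming took in all members past the threshold, the inducible and germ cell lists, and 3 members per direction and comparison with the smallest p. It also took in the 5 most abundant per class and the members at the limit of 5 RPM. Of other lists, it took genes past the threshold in a group comparison, at most 6 per list. The inducible Dnajb2, and Dnajb14, Dnajc7, Dnajc9, Dnajc12, Dnajc18, Dnajc25 and Dnajc27, among the smallest p, met the rule but are not described. Other genes of these lists named for single lines were chosen after their values were seen. Alternatives were pseudocounts of 0.1 and 5, no filter or at least 20 RPM, quantile normalization, no trend, a random effect or replicate block, and leaving out each library or line. Ends were compared within GENCODE transcripts.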

Additional observations from a re-analysis of the deposited data

Results flagged for a closer look

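Over the 4 GSCLC line means of each of the 57 members, 8 had a line whose gap to its nearest neighbour exceeded Dixon's limit for 4 values; chance flags about 1 in 20 such groups. These are 14% of the members, and the same limit was passed by 649 of all 11788 genes tested, or 5.5%. GSCLC_3 was far below the others for Hspa8, at 2732 RPM against 3314 to 3415 RPM, and far above for Dnaja2, at 682.2 RPM against 465.5 to 501.8 RPM. GSCLC_4 was far above the others for Hspa9, at 475.6 RPM against 394.6 to 401.4 RPM, for Dnajc10, at 235.5 RPM against 158.9 to 171.7 RPM, and for Dnajc13, at 141 RPM against 106.4 to 111 RPM. GSCLC_1 was far above for Dnajc24, at 73.9 RPM against 51.2 to 53.9 RPM, and far below for Dnajc5g, at 1.54 RPM against 5.73 to 6.20 RPM. GSCLC_2 was far above for Dnajc14, at 23.6 RPM against 17.9 to 18.9 RPM. The limma contrasts of a line against the other 3 called Dnaja2 and Dnajc10 of these 8.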

How the results depend on the processing

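Of 2170 values of single genes under the alternatives, 2019 kept their side of the threshold, among them 54 uncalled values that changed sign, 146 kept their direction but lost the call, 5 gained one and 0 called values reversed. No member was called between GSCLC and GSC lines except 1, Dnajc11, with single libraries and the line as a random effect, and none between conditions. Without a filter, and without a trend, called members were 4 and 3 over the 6 lines (13 as reported), 3 and 3 over the 4 GSCLC lines (7), 0 and 0 in GSCLC_1 (1), 2 and 3 in GSCLC_3 (6) and 1 and 1 in GSCLC_4 (4); the cause was not tested. After quantile normalization 1 was called in GSCLC_2. Leaving out each library in turn gave 7 to 15 over the 6 lines, 4 to 10 over the 4 GSCLC lines, 0 to 1 in GSCLC_1, 0 to 1 in GSCLC_2, 2 to 7 in GSCLC_3 and 1 to 5 in GSCLC_4. Over all genes, the 356 calls between GSCLC and GSC lines became 42 without GSC_1, 12 without GSC_2 and 642 with single libraries. Correlations of replicate deviations between lines, over all genes tested, were -0.122 to 0.11, so replicate numbers showed no pairing common to most genes. This check cannot speak for small sets of genes. Cyp11a1 and Hsd3b1 were higher in the first replicate of both GSC lines. With the replicate block, called members were 0 in both group comparisons, 12 over the 6 lines and 8 over the 4 GSCLC lines. They were 1, 0, 7 and 4 in GSCLC_1 to GSCLC_4. For the group comparisons the block was fitted on single libraries with the line as a random effect. In that fit 592 genes were called between GSCLC and GSC lines, beside 642 without the block. With 2 lines in a group, the number of lines limits both group comparisons, and for members near 5 RPM the depth limits the precision.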
